A study of Mus musculus with 12 samples.

Results

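The genes described here encode the enzymes that take glucose to pyruvate and lactate and carry pyruvate carbon around the TCA cycle, measured by bulk RNA-Seq in a murine bone marrow stromal cell (BMSC) line. Members were chosen by name, as 43 gene symbols whose Ensembl identifiers were looked up among the 56980 genes of the count matrix, and all 43 were found and tested. Of these, 42 had at least 10 counts in each of the 12 libraries and 40 averaged at least 10 CPM (counts relative to the size of the library). The genes below that level were *Aldoc*, *Eno2* and *Pfkfb2*. The scaling used TMM factors. Log2 fold changes are given ± standard error (SE).

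The study exposed W-20 cells (the W-20-17 line, derived from mouse bone marrow stroma) to parathyroid hormone (PTH) and asked how the hormone acts on YAP, the transcriptional coactivator held in check by the Hippo kinases. There were 4 groups of 3 libraries each, namely unmodified (WT) cells with vehicle (PBS), WT cells with 50 nM PTH, Y428F cells with vehicle and Y428F cells with 50 nM PTH, all collected at 2 hours. The Y428F cells are a stable line in which a plasmid adds Flag-tagged YAP with a tyrosine replaced by phenylalanine, selected as puromycin-resistant clones, and no source says that the cells' own YAP was removed. The study made this change both alone and together with a serine-to-alanine change in the same YAP. Its account of the RNA-Seq uses both names, and the library titles give Y428F only. No WT library carried an introduced YAP, so the tyrosine change, the serine change, the added YAP, the selection and differences between the cultures cannot be told apart in a comparison of the lines. The Y428F libraries were grouped by their titles, since their genotype label reads WT. Nothing in the labels says that the 3 libraries of a group came from separate cultures, so p-values measure the spread between these libraries, which may be technical. Library totals ran from 17127897 to 19057319 counts, and no pair of libraries in a group agreed within counting noise, so each was counted once.

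Glycolysis splits glucose into pyruvate in the cytosol. Hexokinase and phosphofructokinase catalyze early steps in it, and the bifunctional PFKFB enzymes set the level of the sugar bisphosphate that switches phosphofructokinase on. Lactate dehydrogenase turns pyruvate into lactate, whereas the pyruvate dehydrogenase complex, which the PDK kinases turn off by phosphorylation, feeds it into the TCA cycle in mitochondria. Stromal and osteoblastic cells are known to use glycolysis heavily even with oxygen present, and PTH is known to stimulate glycolysis in the osteoblast lineage.

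The 43 genes together took between 0.934% and 0.981% of all counts in the 6 WT libraries and between 1.493% and 1.575% in the 6 Y428F libraries. Most of the gap lay in the 16 glycolytic enzymes proper, which held 0.6319% to 0.6798% of counts in WT libraries and 1.087% to 1.161% in Y428F libraries. The other members went from 0.2983% to 0.3088% in WT libraries up to 0.4034% to 0.425% in Y428F libraries. PTH libraries lay within or close to the vehicle range of the same line. Mitochondrially encoded genes took 0.7033% to 1.019% of counts, and the ranges of the lines overlapped.

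Levels of different members were compared per length, as TPM, which was computed from the counts and the summed exon length of each gene and scaled to the same total in each library. That length counts every annotated exon, so genes with many long rare transcripts, such as *Gapdh*, *Eno1* and *Pkm*, are understated on this scale. By TPM, the highest members in WT cells with vehicle were *Pgk1* at 1033, *Gapdh* at 794, *Pgam1* at 776 and *Tpi1* at 646 TPM. These act from the triose phosphates onward. Not divided by length, *Pkm*, *Gapdh* and *Eno1* were the highest there, at 1622, 1217 and 1009 CPM, with *Pgk1* at 496 CPM. The scarcest were *Aldoc* (0.293 TPM), *Pfkfb2* (3.85 TPM), *Eno2* (4.22 TPM) and *Pfkp* (6.70 TPM). Within the TCA cycle the highest were *Mdh2* (202 TPM), the mitochondrial malate dehydrogenase, and *Idh2* (170 TPM), the mitochondrial NADP-dependent isocitrate dehydrogenase, followed by *Cs* (156 TPM), citrate synthase. The same 4 glycolytic genes led by TPM in Y428F cells with vehicle, with *Pgk1* at 1900, *Pgam1* at 1630, *Gapdh* at 1335 and *Tpi1* at 1024 TPM.

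The first comparison asked which of these genes answered PTH within 2 hours in WT cells. By edgeR PTH raised 4 of the 43 and lowered none, with 9 at an unadjusted p under 0.05, and DESeq2 called 4 higher and 1 lower, *Pdk2*. These were *Pfkfb3*, which makes the activator of phosphofructokinase, *Hk2*, the inducible hexokinase, *Pfkp*, the platelet-type phosphofructokinase subunit, and *Dlst*, the succinyl-transferring subunit of the oxoglutarate dehydrogenase complex. Of the 4, 3 belong to the hexokinase, phosphofructokinase and PFKFB families, and the enzymes from aldolase to pyruvate kinase showed no called change. Summed per length, the hexokinase genes came to 119.8 TPM ± 10.38 (SD, n = 3) with vehicle and 123.5 TPM ± 11.12 with PTH. The phosphofructokinase subunits came to 110.3 TPM ± 10.68 and 96.8 TPM ± 7.044, and the PFKFB genes to 24.49 TPM ± 1.052 and 28.99 TPM ± 1.401. These sums carry no test. Across all 15583 genes tested, 6.88% were called higher and 4.91% lower, or 11.0% and 6.44% of the genes that averaged at least 10 CPM (a limit chosen after the values were seen). The share of members called higher, 9.302%, was close to that background. The median log2 fold change was 0.007 over the members and -0.015 over all genes.

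*Pfkfb3* (chr2:11476244-11558888, minus strand, GRCm39) stood at 19.9, 20.6 and 22.9 CPM in the WT vehicle libraries and at 33.4, 36.5 and 30.0 CPM in the WT PTH libraries. Every PTH library lay above every vehicle library. The log2 fold change was 0.66 ± 0.09, a 1.58-fold rise (edgeR's quasi-likelihood test, adjusted p = 0.000369, n = 3 per group). *Hk2* (chr6:82699740-82751469, minus strand) read 40.6, 37.6 and 40.0 CPM with vehicle and 65.4, 61.7 and 47.2 CPM with PTH. The groups did not overlap, but the third PTH library was well below the other two. Its log2 fold change was 0.56 ± 0.10 (adjusted p = 0.00332, edgeR), and the call stood with each library left out in turn.

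*Pfkp* (chr13:6629798-6698970, minus strand) went from 24.1, 24.3 and 22.3 CPM to 32.1, 30.6 and 28.7 CPM, again without overlap. The log2 fold change was 0.37 ± 0.08 (adjusted p = 0.00757, edgeR). *Dlst* (chr12:85157027-85182486, plus strand) went from 97.3, 101 and 102 CPM to 117, 122 and 110.2 CPM, which is 0.22 ± 0.06 on the log2 scale (adjusted p = 0.0283, edgeR). Of the 4 calls this was the least firm. It was lost without WT vehicle replicate 2 (adjusted p = 0.0702), without WT vehicle replicate 3 (0.0682), without WT PTH replicate 1 (0.0964) and without WT PTH replicate 2 (0.109), each by edgeR. The call was also lost with the replicate number as a block (adjusted p = 0.0716) and with library totals only (adjusted p = 0.0824).

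**Figure D1:**
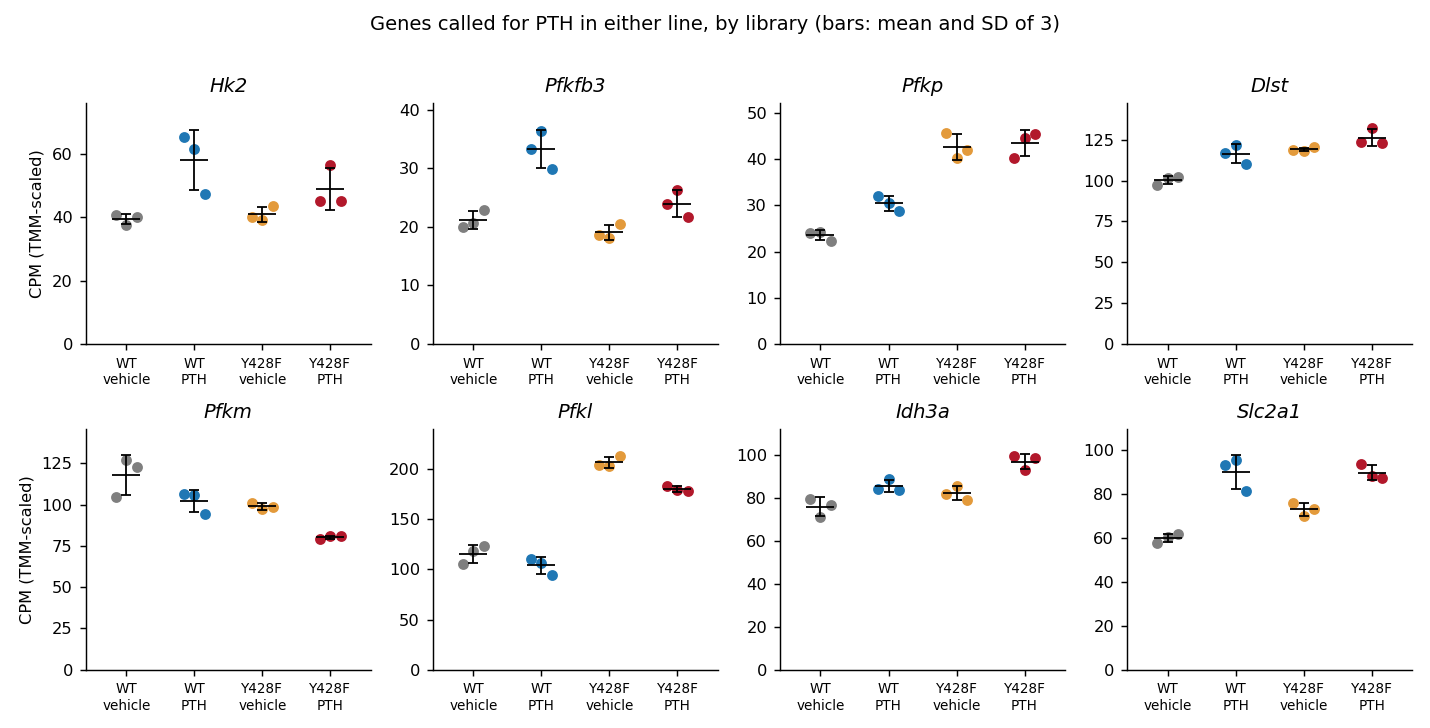
CPM (TMM-scaled, vertical axes from 0) in each library of the 4 groups for the 7 member genes called for PTH in either line and for the glucose transporter gene *Slc2a1*; points are libraries, and bars give the mean and SD of 3. The mean of *Pfkfb3* rose from 21.1 to 33.3 CPM in the WT line and from 19.1 to 24.0 CPM in the Y428F line, where that of *Pfkm* fell from 99.0 to 80.2 CPM.

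No sister isozyme of these genes was called in WT cells. *Hk1*, the constitutive hexokinase, stood at -0.04 ± 0.07 on the log2 scale in WT cells, *Pfkl* -0.15 ± 0.07 and *Pfkm* -0.20 ± 0.08, none of them called. *Pfkfb2* and *Pfkfb4* had values of -0.25 ± 0.12 and -0.18 ± 0.12, also not called. As a description with no test, *Hk2* made up 18.7% ± 1.99 (SD, n = 3) of the *Hk1* and *Hk2* signal per length with vehicle and 25.7% ± 2.21 with PTH in WT cells. *Pfkfb3* went from 50.0% ± 1.48 to 64.5% ± 4.32 of the 3 PFKFB genes, while *Pfkp* went from 6.11% ± 0.695 to 8.67% ± 0.202 of the phosphofructokinase subunits.

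Below phosphofructokinase, values lay near 0 in WT cells. *Gapdh*, the glyceraldehyde phosphate dehydrogenase gene that the study used as its RT-qPCR reference, had 1197, 1208 and 1245.5 CPM with vehicle and 1272, 1252 and 1135 CPM with PTH. The groups overlapped fully, with a log2 fold change of 0.01 ± 0.07 (95% interval -0.13 to 0.15). *Aldoa*, *Tpi1*, *Pgk1*, *Pgam1*, *Eno1*, *Eno3* and *Pkm* lay between -0.05 and 0.07. *Eno2*, the neuronal enolase and a scarce transcript at 5.47 CPM with vehicle, had -0.49 ± 0.17 (adjusted p = 0.0891, edgeR). *Ldha* had 0.08 ± 0.06 and *Ldhb* -0.11 ± 0.06.

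Among the members that govern pyruvate entry (the PDK kinases and the pyruvate dehydrogenase subunits), *Pdk2* had the value furthest from 0 in WT cells, -0.34 ± 0.10, with an adjusted p of 0.054 by edgeR. *Pdk4* had 0.24 ± 0.11 and *Pdha1*, the catalytic subunit that the PDK enzymes phosphorylate, 0.16 ± 0.06, both without a call. In the TCA cycle, *Idh3a*, the catalytic subunit of the NAD-dependent isocitrate dehydrogenase, had 0.18 ± 0.07 (adjusted p = 0.104, edgeR) and *Fh1*, fumarase, -0.14 ± 0.08. Across all genes, 3932 of 15583 reached an unadjusted p under 0.05 in WT cells.

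In Y428F cells PTH raised 2 members and lowered 2. The called genes were *Pfkfb3* and *Idh3a*, which rose, and *Pfkm* and *Pfkl*, the muscle and liver phosphofructokinase subunits, which fell. Of the 17691 genes tested, 6.61% were called higher and 5.78% lower, or 12.0% and 8.47% of those at a mean of at least 10 CPM, so the members' 4.651% in each direction was not above the background. Their median log2 fold change was 0.024, against -0.007 for all genes.

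*Pfkfb3* went from 18.6, 18.1 and 20.6 CPM with vehicle to 23.8, 26.3 and 21.8 CPM with PTH in Y428F cells, with no overlap although the highest vehicle and the lowest PTH library lay close together. The log2 fold change was 0.33 ± 0.10 (adjusted p = 0.0286, edgeR). Leaving out Y428F vehicle replicate 1 (adjusted p = 0.0922), vehicle replicate 2 (0.117), PTH replicate 1 (0.0557) or PTH replicate 2 (0.124) ended that call. *Idh3a* (chr9:54493575-54514730, plus strand) went from 81.9, 85.7 and 79.2 CPM to 99.6, 92.9 and 98.7 CPM. The libraries separated fully, with a log2 fold change of 0.24 ± 0.06 (adjusted p = 0.00942, edgeR).

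*Pfkm* (chr15:97990451-98031417, plus strand) fell from 101, 97.2 and 98.6 CPM to 79.1, 80.8 and 80.8 CPM in Y428F cells. Replicates were tight and the groups did not overlap, with a log2 fold change of -0.30 ± 0.07 (adjusted p = 0.00537, edgeR). *Pfkl* (chr10:77818084-77845922, minus strand) fell from 204.5, 203 and 213 CPM to 183, 179.6 and 178 CPM, a log2 fold change of -0.20 ± 0.06 (adjusted p = 0.0438, edgeR). That call was lost when any 1 of the 6 Y428F libraries was left out, with adjusted p up to 0.142. *Hk2* read 40.1, 39.1 and 43.6 CPM with vehicle and 45.0, 56.6 and 45.2 CPM with PTH, or 0.26 ± 0.10 on the log2 scale, which did not pass (adjusted p = 0.118, edgeR). *Pfkp* had 0.03 ± 0.07, and *Gapdh* 0.04 ± 0.06.

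**Figure D2:**
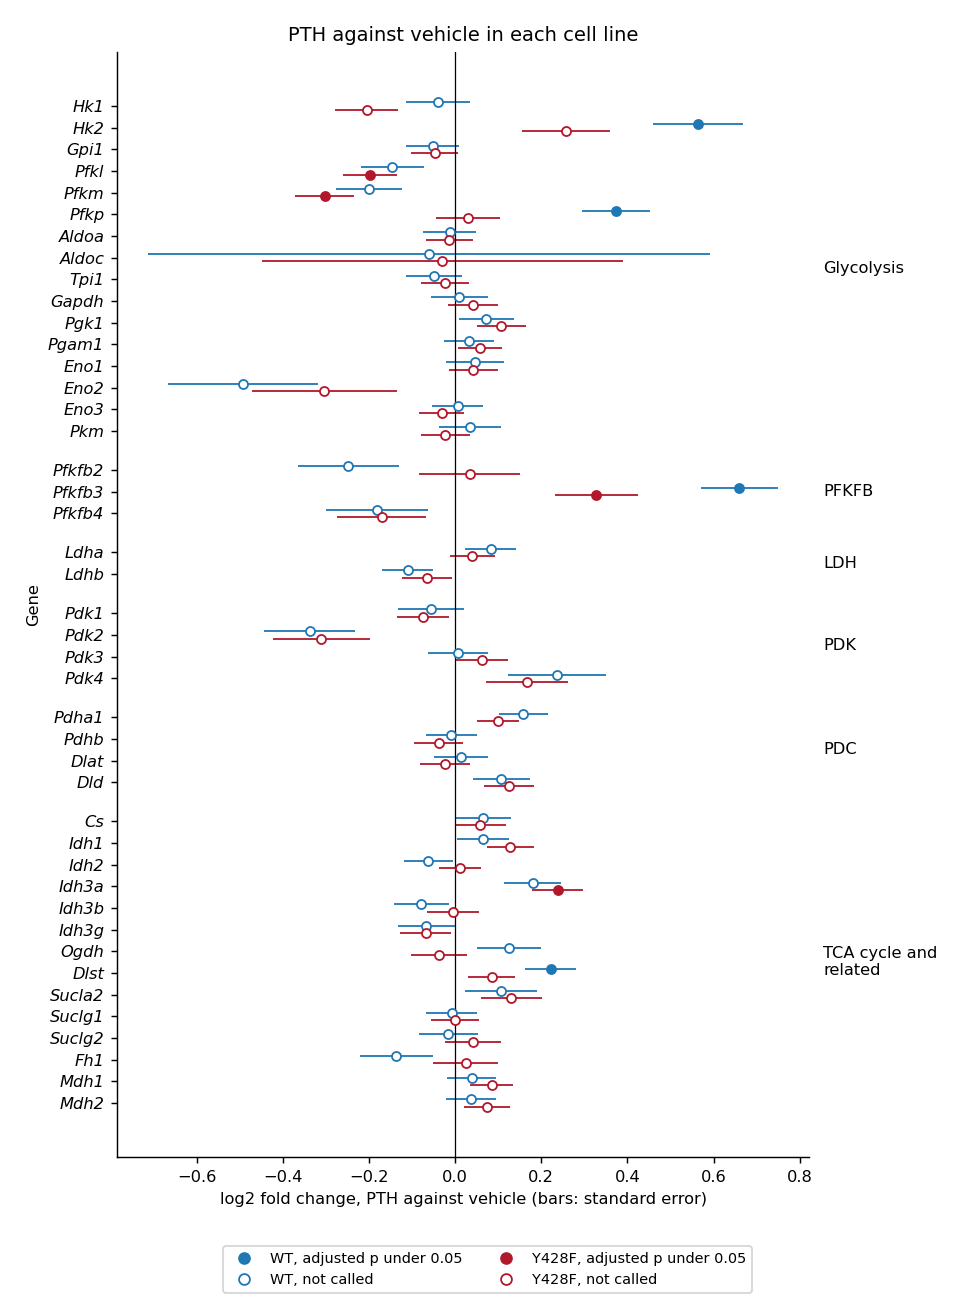
The log2 fold change of each of the 43 members with PTH against vehicle (horizontal axis) in WT and Y428F cells, ordered by role, with bars of 1 standard error and filled points where edgeR's adjusted p was under 0.05. Most points lie within 0.2 of 0 in both lines, and *Pfkfb3* is the member called in both, at 0.66 and 0.33.

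Some cell type markers moved with PTH too. Of 12 BMSC markers tested, *Pdgfra* was called lower in both lines, at -0.59 in WT and -0.73 in Y428F cells on the log2 scale (adjusted p = 0.00146 and 7.17e-05, edgeR). *Cd44* was called higher in both, at 0.34 and 0.31, and *Col1a1* lower in Y428F cells, at -0.33. The summed level of that list was 22990 to 26700 CPM with vehicle and 22840 to 26000 CPM with PTH in WT libraries, which overlap, and 16160 to 17300 CPM and 12730 to 15440 CPM in Y428F libraries, which do not. *Pparg*, a regulator of fat cell formation, was the called gene of 3 adipocyte markers tested, at 0.52 and 0.71 (adjusted p = 0.00135 and 9.62e-07, edgeR). The summed adipocyte list went from 55.3 to 64.3 CPM with vehicle up to 67.4 to 75.1 CPM with PTH in WT libraries, and from 45.4 to 47.9 CPM up to 70.3 to 75.4 CPM in Y428F libraries. Its rise lay mainly in *Pparg*, at 30.4 to 33.2 CPM with vehicle and 41.8 to 50.2 CPM with PTH in WT libraries. In Y428F libraries *Pparg* read 38.9 to 40.5 CPM with vehicle and 62.1 to 67.5 CPM with PTH. No hematopoietic or endothelial marker was called by edgeR in either line, with 0 at an unadjusted p under 0.05 in WT cells and 1, an endothelial marker, in Y428F cells. The part of these markers in the members' responses was not tested.

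Whether PTH acted differently in the lines was tested as an interaction (response in Y428F cells minus response in WT cells). None of the 43 members was called by edgeR, with 2 at an unadjusted p under 0.05, and DESeq2 also called none, likewise with 2. Across all genes 0.413% were called in either direction. The members furthest from 0 were *Pfkp* at -0.34 (95% interval -0.57 to -0.11, adjusted p = 0.367), *Pfkfb3* at -0.32 (-0.61 to -0.04, adjusted p = 0.626) and *Hk2* at -0.30 (-0.60 to 0.003, adjusted p = 0.717), all by edgeR. The interval of *Hk2* reached 0, those of *Pfkp* and *Pfkfb3* did not before adjustment over all genes, and none of these differences passed the adjusted test. For abundant members the intervals were narrower, and that of *Ldha* ran from -0.19 to 0.12.

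The promoters of *Hk2* and *Pfkfb3*, the members with the largest rise under PTH, and of *Ldha*, the member with the largest difference between the lines among those above 1 CPM, are given from 250 bases before to 50 bases after the RefSeq start of each gene (assembly GRCm38.p6). They are written 5′ to 3′ along the gene's strand, from chr6:82774405-82774704 (minus strand) for *Hk2*, chr2:11553880-11554179 (minus strand) for *Pfkfb3* and chr7:46845554-46845853 (plus strand) for *Ldha*. Capitals mark TGACG, the core of the cAMP response element, and ACGTG, the core shared by hypoxia response elements and E-boxes, on either strand.
Hk2: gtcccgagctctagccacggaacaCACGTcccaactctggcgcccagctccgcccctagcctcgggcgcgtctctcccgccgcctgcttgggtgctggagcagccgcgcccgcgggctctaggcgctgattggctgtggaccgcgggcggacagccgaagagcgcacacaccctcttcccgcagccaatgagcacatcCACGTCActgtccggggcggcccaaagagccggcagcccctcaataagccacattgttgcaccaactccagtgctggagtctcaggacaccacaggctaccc
Pfkfb3: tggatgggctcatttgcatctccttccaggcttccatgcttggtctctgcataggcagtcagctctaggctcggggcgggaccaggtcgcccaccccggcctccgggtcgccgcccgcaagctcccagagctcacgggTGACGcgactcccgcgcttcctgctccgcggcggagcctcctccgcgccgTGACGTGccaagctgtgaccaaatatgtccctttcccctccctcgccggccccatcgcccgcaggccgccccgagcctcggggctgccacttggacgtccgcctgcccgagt
Ldha: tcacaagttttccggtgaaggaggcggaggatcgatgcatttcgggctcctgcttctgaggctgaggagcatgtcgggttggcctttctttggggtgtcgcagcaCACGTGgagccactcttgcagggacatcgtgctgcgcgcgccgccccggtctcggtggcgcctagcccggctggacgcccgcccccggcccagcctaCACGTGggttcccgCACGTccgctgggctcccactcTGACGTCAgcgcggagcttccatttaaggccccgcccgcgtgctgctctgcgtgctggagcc

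In *Hk2* the sequences overlap in one run, where TGACG lies 50 bases and ACGTG 52 bases before the start, and a second ACGTG lies 226 bases before it. In *Pfkfb3* TGACG occurs 112 and 62 bases before the start, the latter overlapping ACGTG at 60 bases. *Ldha* holds the full palindrome TGACGTCA 12 bases before its start and CACGTG at 145 and 48 bases. Windows were found for 42 of the 43 members, with none for *Idh3a*. Each gene had 1 window, at its outermost RefSeq start, and the comparison genes were not filtered for expression. TGACG occurred in 17 of the 42 windows (40.5%), against 20.94% of 27025 genes with 1 window each. ACGTG occurred in 14 (33.3%), against 19.63%. The longer TGACGTCA, which contains TGACG on both strands, occurred in *Ldha*, *Ogdh* and *Mdh2*, 7.1% of the members against 1.85% of all genes. CACGTG, which contains ACGTG, occurred in *Pfkm*, *Ldha* and *Pdk2*, 7.1% against 7.24%. A match is a run of letters and not a bound site. Of the members with TGACG, only *Hk2* and *Pfkfb3* were called for PTH in either line. *Ldha*, with the full palindrome, had log2 fold changes of 0.08 in WT and 0.04 in Y428F cells, neither called. *Pfkp* and *Dlst*, which also rose in WT cells, had no match to TGACG or ACGTG in this window.

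More members differed between the lines than between PTH and vehicle. With vehicle, 27 of the 43 members were higher in Y428F cells and 6 were lower, against 22.4% of all 17691 tested genes higher and 22.7% lower (30.4% and 33.0% of those at a mean of at least 10 CPM). Among the members that is 62.79% and 13.95%. The median log2 difference was 0.29 over the members and 0.01 over all genes. With PTH, in libraries not shared with the vehicle comparison, 28 members were higher and 8 lower, or 65.12% and 18.6%, against 22.8% and 23.0% of all genes (30.8% and 33.3% of those at a mean of at least 10 CPM), and the medians were 0.30 and 0.02. In bulk RNA, a change in the share of cells that express a gene cannot be told apart from a change per cell.

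Of the glycolytic enzymes, 12 of 16 (75%) were higher and 1 (6.25%) lower with vehicle, beside 22.4% and 22.7% of all genes. Their median was 0.68. *Pgam1*, phosphoglycerate mutase (chr19:41900341-41907104, plus strand), read 363, 345 and 349 CPM in WT cells and 725, 728 and 734 CPM in Y428F cells with vehicle. With PTH it read 362, 358 and 357 CPM in WT cells and 789, 729.8 and 759 CPM in Y428F cells. The lines were far apart under both conditions, by 1.05 ± 0.05 and 1.08 ± 0.05 on the log2 scale (adjusted p = 9.11e-13 and 5.82e-13, edgeR). Its transcribed copy *Pgam1-ps2*, a pseudogene whose reads the counting may share with it, averaged 13.7 CPM and differed by 0.84 with vehicle.

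*Eno1*, the main enolase (chr4:150321073-150337027, plus strand), read 989.7, 1005 and 1034 CPM in WT cells and 1987, 1882 and 2019 CPM in Y428F cells with vehicle. With PTH the values were 1082, 1073 and 958 CPM against 2053.5, 2033 and 1976 CPM. The log2 difference was 0.96 ± 0.06 under both conditions (adjusted p = 2.29e-11 and 2.08e-11, edgeR). Its near-identical copy *Eno1b*, at a mean of 2.23 CPM, was higher as well, by 1.70 with vehicle, so the split of reads between the pair is uncertain.

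*Pgk1*, phosphoglycerate kinase (chrX:105230706-105247305, plus strand), read 523, 483 and 483 CPM in WT cells with vehicle, and 903, 895 and 898 CPM in Y428F cells. With PTH it read 518, 507 and 533 CPM against 1036, 923 and 945 CPM. These are log2 differences of 0.86 ± 0.06 and 0.90 ± 0.06 (adjusted p = 1.06e-10 and 4.96e-11, edgeR). *Gapdh* (chr6:125135289-125143518, minus strand) read 1940, 1968 and 2136 CPM in Y428F cells with vehicle and 2084, 2093.5 and 2044 CPM with PTH. Each value was above all 6 WT libraries, by 0.73 ± 0.06 with vehicle and 0.77 ± 0.06 with PTH (adjusted p = 1.67e-09 and 7.73e-10, edgeR). As the reference gene of the study's RT-qPCR, *Gapdh* thus moved little with PTH within a line but was 1.66-fold higher in Y428F than in WT cells.

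**Figure D3:**
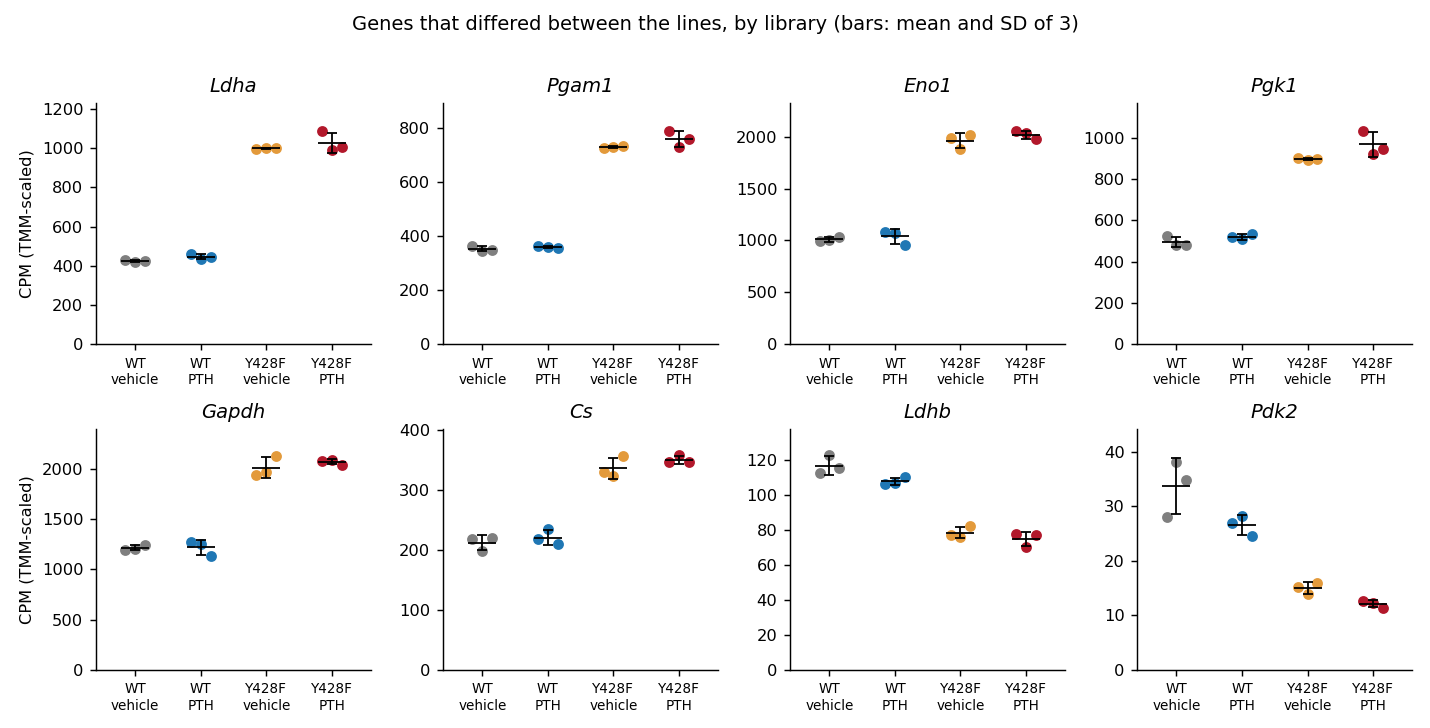
CPM (TMM-scaled, vertical axes from 0) in each library of the 4 groups for 6 members that were higher and 2 that were lower in Y428F cells; points are libraries, and bars give the mean and SD of 3. In every panel the 6 WT libraries and the 6 Y428F libraries form separate ranges, as for *Ldha*, at 423 and 1000.2 CPM on average with vehicle.

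*Tpi1* (0.64 ± 0.06), *Pkm* (0.71 ± 0.06), *Eno3* (0.64 ± 0.05), *Gpi1* (0.34 ± 0.05) and *Aldoa* (0.29 ± 0.05) were higher with vehicle too, so that every step from glucose phosphate isomerase to pyruvate kinase had at least 1 gene that was higher. Gene counts cannot divide *Pkm* into its M1 and M2 splice forms. *Aldoc* was called higher at 1.53 ± 0.48 but averaged 0.563 CPM. Neither hexokinase gene was called with vehicle. *Hk1* had -0.03 ± 0.07 and *Hk2* 0.05 ± 0.10, and with PTH *Hk1* was lower (-0.19 ± 0.07, adjusted p = 0.0377, edgeR) while *Hk2* had -0.25 ± 0.10 without a call (adjusted p = 0.0535).

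Phosphofructokinase differed in its makeup. *Pfkl* read 106, 118 and 123 CPM in WT cells with vehicle, with 110.5, 107 and 94.97 CPM under PTH, and stood in Y428F cells at the 178 to 213 CPM given above. It was higher by 0.84 ± 0.06 with vehicle and 0.79 ± 0.06 with PTH (adjusted p = 8.86e-10 and 2.17e-09, edgeR). *Pfkp* stood at 45.7, 40.2 and 42.0 CPM in Y428F cells with vehicle and at 40.4, 44.7 and 45.5 CPM with PTH, above all WT libraries. The log2 difference was 0.85 ± 0.08 with vehicle and 0.52 ± 0.08 with PTH (adjusted p = 1.22e-08 and 1.02e-05, edgeR). *Pfkm* moved the other way, by -0.25 ± 0.07 and -0.35 ± 0.07 (adjusted p = 0.00398 and 0.000253, edgeR). Per length, *Pfkm* was the leading subunit gene in WT cells with vehicle, at 55.8% ± 1.23 (SD, n = 3) of the 3, with *Pfkl* at 38.1% ± 0.978. In Y428F cells *Pfkl* led at 54.1% ± 0.974, with *Pfkm* at 37.2% ± 0.575. These shares carry no test, and the lead of *Pfkm* in WT cells rests on the exon lengths. Before division by length, *Pfkm* and *Pfkl* averaged 118 and 116 CPM there with vehicle, and 102 and 104 CPM with PTH.

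The PFKFB genes did not rise as a group. *Pfkfb2* was lower with vehicle (-0.53 ± 0.11, adjusted p = 0.00066, edgeR) and had -0.24 ± 0.12 with PTH. *Pfkfb3* had -0.15 ± 0.10 with vehicle and was lower with PTH (-0.47 ± 0.09, adjusted p = 0.000273, edgeR). *Pfkfb4* had 0.25 ± 0.10 with vehicle (adjusted p = 0.055) and was called higher with PTH at 0.27 ± 0.11 (adjusted p = 0.0473, edgeR), although its libraries overlapped there.

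Lactate dehydrogenase showed the largest difference of all members above 1 CPM. *Ldha*, whose product favors the reduction of pyruvate to lactate (chr7:46490899-46505061, plus strand), read 430.2, 417 and 422 CPM in WT cells and 996, 1001 and 1003 CPM in Y428F cells with vehicle. With PTH it read 459.6, 436 and 443 CPM in WT cells and 1087, 991 and 1007 CPM in Y428F cells. The log2 difference was 1.24 ± 0.05 with vehicle, or 2.36-fold higher, and 1.21 ± 0.05 with PTH (adjusted p = 1.17e-13 and 1.87e-13, edgeR). *Ldhb*, the subunit typical of heart, was lower in Y428F cells, with vehicle means of 117 ± 5.34 CPM in the WT line and 78.3 ± 3.14 CPM in the mutant line (SD, n = 3 each). Its log2 difference was -0.58 ± 0.06 with vehicle and -0.52 ± 0.06 with PTH (adjusted p = 5.13e-08 and 2.16e-07, edgeR). Per length, the ratio of *Ldha* to *Ldhb* was 3.45 ± 0.204 (SD, n = 3) in WT cells with vehicle and 3.94 ± 0.151 with PTH, and 12.1 ± 0.451 and 13.1 ± 0.526 in Y428F cells. The lowest ratio in a Y428F library, 11.6, was above the highest in a WT library, 4.11.

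**Figure D4:**
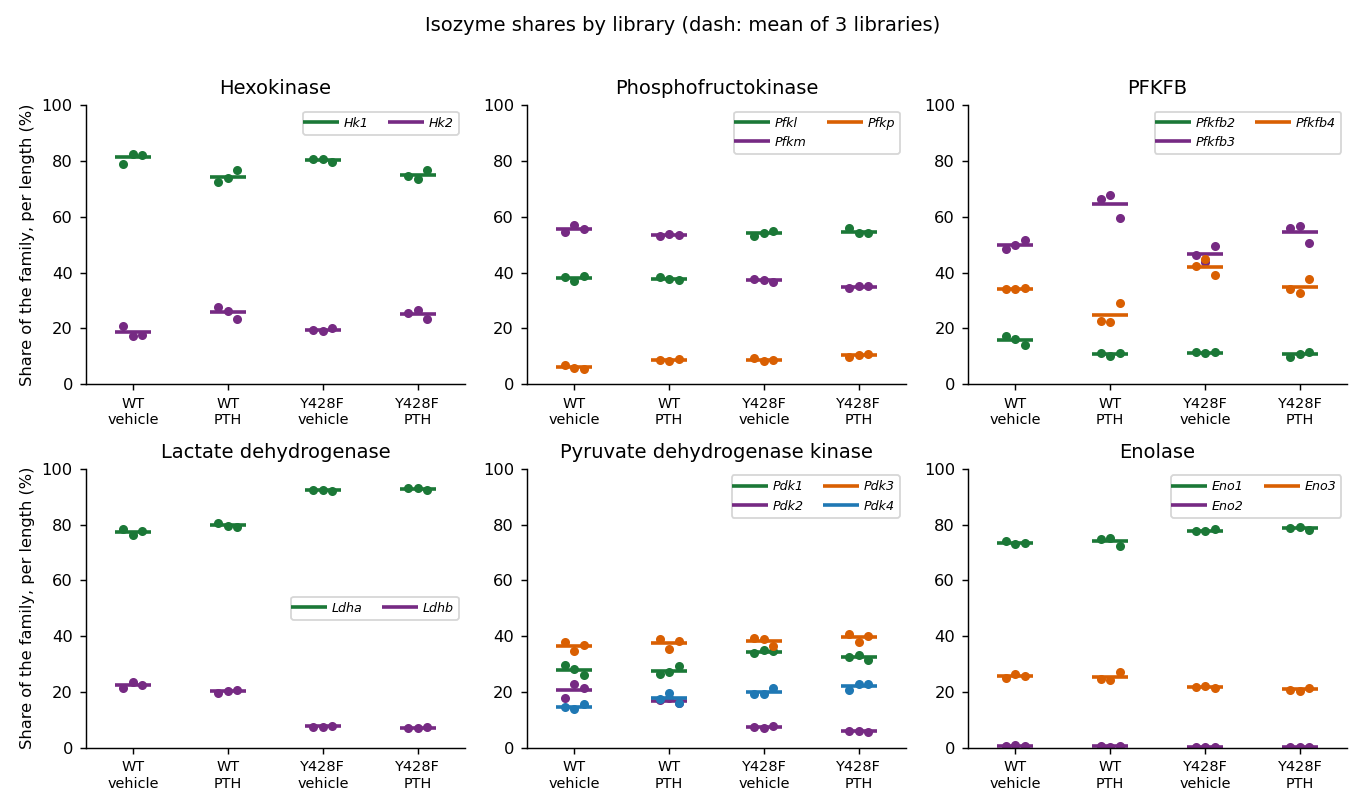
The share of each isozyme in its family per length (percent, vertical axis) in the libraries of the 4 groups, for hexokinase, phosphofructokinase, PFKFB, lactate dehydrogenase, pyruvate dehydrogenase kinase and enolase; points are libraries and dashes group means. *Ldhb* went from 22.5% in WT to 7.62% in Y428F cells with vehicle and *Pdk2* from 20.8% to 7.33%, whereas *Hk2* and *Pfkfb3* gained share with PTH in both lines. The shares carry no test. With PTH in Y428F cells *Hk1* went from 96.6 to 81.5 TPM and *Hk2* from 23.5 to 27.3 TPM, neither of them called.

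The kinases that restrain pyruvate dehydrogenase differed in opposite directions. *Pdk2* (chr11:94914929-94932242, minus strand) read 28.0, 38.1 and 34.9 CPM in WT cells with vehicle and 15.2, 13.9 and 15.9 CPM in Y428F cells. With PTH it read 26.9, 28.1 and 24.5 CPM against 12.6, 12.3 and 11.4 CPM. WT vehicle replicates were spread, but none came near the Y428F libraries, and the log2 difference was -1.17 ± 0.10 with vehicle and -1.13 ± 0.11 with PTH (adjusted p = 9.85e-09 and 2.87e-08, edgeR). *Pdk1*, *Pdk3* and *Pdk4* were each higher with vehicle, by 0.65 ± 0.06, 0.41 ± 0.06 and 0.78 ± 0.10. Summed per length, the 4 kinases came to 87.8 TPM ± 4.05 in WT and 113 TPM ± 2.67 in Y428F cells with vehicle (SD, n = 3), so *Pdk2* lost share while the family total did not fall. Of the pyruvate dehydrogenase complex itself, *Pdha1* (0.18 ± 0.05) and *Dld* (0.20 ± 0.06) were higher with vehicle, and *Pdhb* and *Dlat* had -0.14 ± 0.06 and -0.10 ± 0.06 without a call. *Pdhb* was called lower with PTH (-0.16 ± 0.06, adjusted p = 0.0283, edgeR).

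In the TCA cycle and its cytosolic partners, 9 of 14 genes were higher (64.29%) and 2 lower (14.29%) with vehicle, with a median of 0.24. Of all genes tested, 22.4% were higher and 22.7% lower (30.4% and 33.0% of those at a mean of at least 10 CPM). The counts with PTH were the same, although *Idh3a* was then called higher (adjusted p = 0.0158, edgeR) and *Dlst* was not called (0.0857). *Cs*, citrate synthase, had the largest difference of the 14, from 212 ± 12.6 CPM to 337 ± 17.3 CPM with vehicle (SD, n = 3 each), a log2 difference of 0.67 ± 0.06 under both conditions. *Mdh2* (0.51 ± 0.05), *Ogdh* (0.48 ± 0.07), *Fh1* (0.39 ± 0.08), *Sucla2* (0.32 ± 0.07) and *Dlst* (0.25 ± 0.05) were higher with vehicle. Succinyl-CoA synthetase differed by subunit. *Sucla2*, its ATP-forming beta subunit, was higher, whereas *Suclg1*, the shared alpha subunit, was lower (-0.28 ± 0.06, adjusted p = 0.000242, edgeR) and *Suclg2*, the GTP-forming beta subunit, had -0.14 ± 0.06 without a call. The NADP-dependent isocitrate dehydrogenases parted too, with cytosolic *Idh1* higher (0.31 ± 0.05) and mitochondrial *Idh2* lower (-0.23 ± 0.05). Of the 3 subunits of the NAD-dependent enzyme, *Idh3g* was higher (0.23 ± 0.06), and *Idh3a* (0.12 ± 0.06) and *Idh3b* (0.05 ± 0.06) were not called with vehicle.

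**Figure D5:**
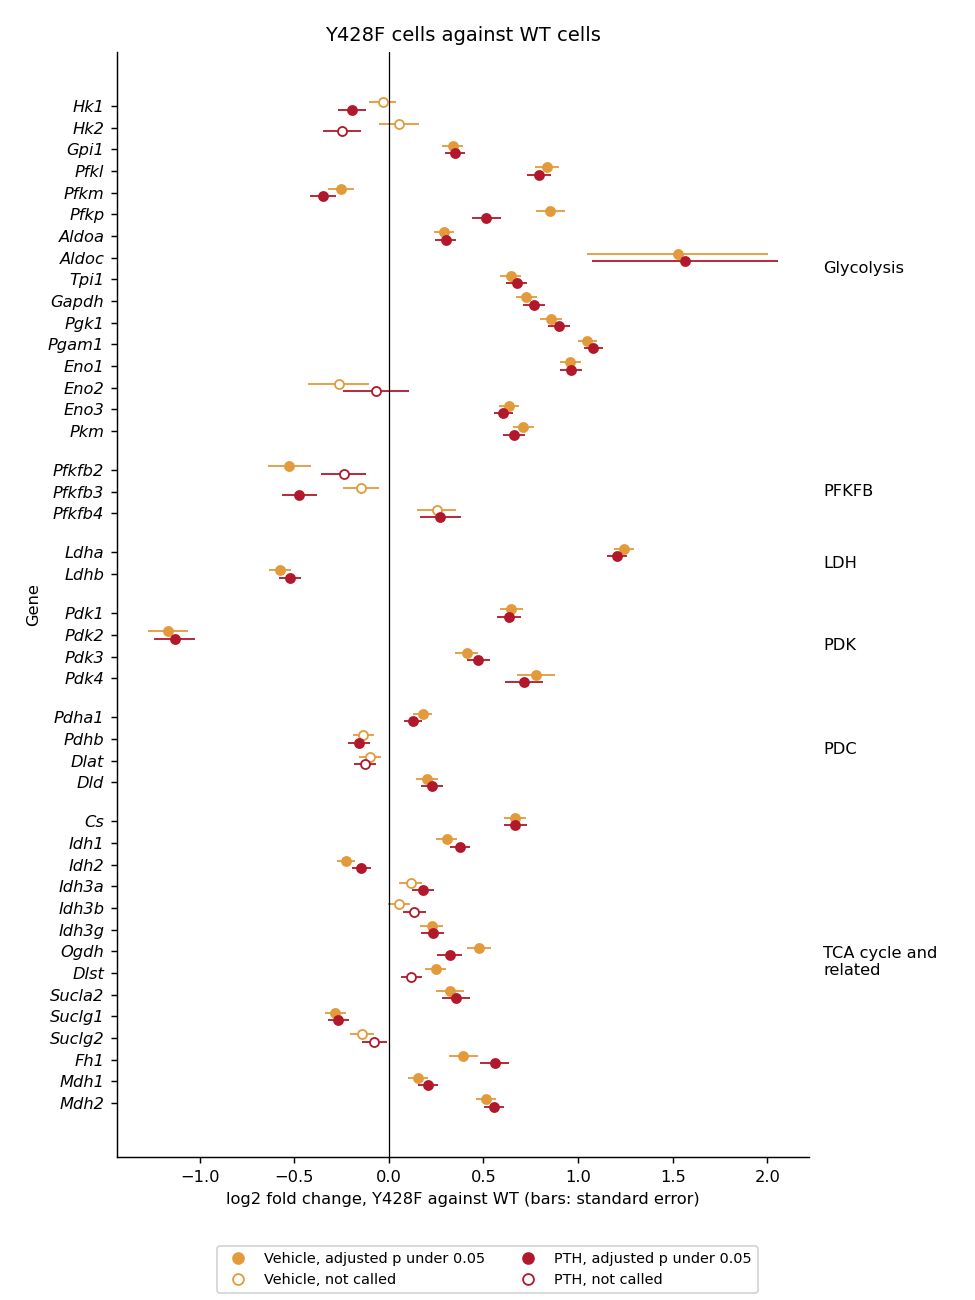
The log2 difference of each of the 43 members between Y428F and WT cells (horizontal axis), with vehicle and with PTH, ordered by role, with bars of 1 standard error and filled points where edgeR's adjusted p was under 0.05. Glycolytic enzymes mostly lie between 0.3 and 1.1, *Ldha* and *Pdk2* are the extremes among members above 1 CPM at 1.24 and -1.17, and the hexokinases lie near or below 0.

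The difference between the lines was uneven over the genome. Values for members were therefore also taken after subtracting the median of all tested genes on their chromosome. With vehicle those medians ran from 0.30 on chromosome 10, which carries *Hk1*, *Pfkl* and *Cs*, and 0.23 on chromosome 15, which carries *Pfkm*, to -0.21 on chromosome 9, which carries *Pkm*, *Pfkfb4*, *Dlat* and *Idh3a*. After subtracting them, 26 members were higher and 8 lower with vehicle, while 20.3% of all genes tested were called higher and 22.8% lower (26.8% and 33.2% of those at a mean of at least 10 CPM). With PTH, after the same step, 26 members were higher and 9 lower, beside 20.6% and 23.3% of all genes (27.4% and 33.6% at that level). Values that follow are with vehicle. *Ldha* then stood at 1.24, *Eno1* at 1.01, *Pdk2* at -1.35 (from -1.17), *Pkm* at 0.92, *Pgam1* at 0.89 and *Gapdh* at 0.84. *Pfkl* and *Cs* came to 0.54 and 0.37, still called. *Hk1* stood at -0.33 (adjusted p = 0.000889, edgeR) and *Pdhb* at -0.17 (adjusted p = 0.0179), both now called lower. *Pfkfb4* (0.46) and *Idh3a* (0.33) became called higher, and *Pdha1* (0.05), *Idh3g* (0.10) and *Mdh1* (-0.03, from 0.15 before) were no longer called. The part that whole chromosomes play in the members' differences was not tested further.

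Cell type markers also differed between the lines. Of 12 BMSC marker genes tested, 9 were lower and 3 higher in Y428F cells with vehicle. The log2 differences of *Pdgfra*, *Pdgfrb*, *Vcam1* and *Col3a1* were -1.59, -1.51, -1.76 and -2.04. The higher genes were *Ly6a* at 1.23, *Cd44* at 0.19 and the scarce *Lepr*, the leptin receptor, which was furthest from 0 at 2.77 (adjusted p = 0.000244, edgeR) with 1, 2 and 5 counts in WT vehicle libraries and 18, 19 and 21 counts in Y428F vehicle libraries. *Col1a2*, a fibrillar collagen and the gene with the most counts of the list, spanned 11910 to 13770 CPM in WT vehicle libraries and 7534 to 8068 CPM in Y428F vehicle libraries, and *Thy1* was at 0 in all 12 libraries. The summed level of the list ran from 22840 to 26700 CPM in WT and from 12730 to 17300 CPM in Y428F libraries. Hematopoietic markers summed to 1.72 to 2.74 CPM in WT and 22.8 to 25.5 CPM in Y428F libraries, with *Ptprc*, *Ly6g* and *Lyz2* called higher of 6 tested. Most of those counts were from *Ly6g*, at 17.0 to 18.5 CPM in Y428F libraries and at most 0.123 CPM in WT libraries, while *Cd3e* was at 0 throughout. Endothelial markers summed to 2.50 to 4.34 CPM and 7.13 to 11.2 CPM, with *Cdh5* giving the most counts in Y428F cells, at 5.61 to 8.85 CPM. With vehicle *Cdh5* was called higher and *Vwf* lower of 5 tested. Adipocyte markers summed to 55.3 to 75.1 CPM and 45.4 to 75.4 CPM, with the most counts over the 12 libraries from *Pparg*, *Fabp4* called lower, *Pparg* called higher, and *Adipoq* and *Cfd* at 0. The part of these markers in the members' differences was not tested.

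Genes around the pathway were taken from 8 lists. Of all genes tested, PTH was called for 6.88% higher and 4.91% lower in WT cells, and for 6.61% and 5.78% in Y428F cells. At a mean of at least 10 CPM the shares were 11.0% and 6.44% in WT cells, and 12.0% and 8.47% in Y428F cells. In WT cells PTH raised 2 of 8 transport genes, among them *Slc2a1*, the glucose transporter GLUT1, which went from 57.9, 60.6 and 61.6 CPM to 93.3, 95.7 and 81.3 CPM. Its log2 fold change was 0.59 (adjusted p = 0.000154, edgeR), and *Slc16a1*, the lactate transporter MCT1, rose by 0.20 (adjusted p = 0.0427). In Y428F cells *Slc2a1* rose as well, by 0.30 (adjusted p = 0.00371), and *Slc2a8* fell by 0.37 (adjusted p = 0.00666). *Pdp1*, a phosphatase that turns pyruvate dehydrogenase back on, was the called gene of the 12 further pyruvate dehydrogenase and TCA genes in WT cells. It read 18.6, 20.3 and 18.1 CPM with vehicle and 30.7, 29.2 and 27.3 CPM with PTH, a rise of 0.62 (adjusted p = 0.000307, edgeR). In Y428F cells it rose by 0.39 (adjusted p = 0.0142), a call lost without vehicle replicate 2 (0.104) or PTH replicate 2 (0.0683), and its sister *Pdp2* rose by 0.27 (adjusted p = 0.00862).

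*Me1*, cytosolic malic enzyme, rose with PTH on the log2 scale, by 0.26 in the WT line (adjusted p = 0.0139, edgeR) and by 0.17 in the Y428F line (adjusted p = 0.0426). The list of glutamine, aspartate and citrate use had 2 of 12 genes higher and 1 lower in WT cells and 2 higher and 0 lower in Y428F cells. Over all genes the shares were 6.88% higher and 4.91% lower in WT cells, and 6.61% and 5.78% in Y428F cells. Counts of 1 or 2 genes in a short list do not stand clearly apart from these shares. *Pprc1*, a PGC-1-related coactivator, went up by 0.73 and 0.57 (adjusted p = 0.000105 and 3.48e-05, edgeR), as the one called gene of 10 regulators of mitochondrial biogenesis in WT cells. Of 17 HIF-1 factors and targets tested in WT cells, 2 were higher, among them *Egln1* (0.36), and 2 lower, *Ddit4* (-0.80) and *Vegfa* (-0.43). In the pentose phosphate pathway 0 of 8 genes were called in either line. *Pck2*, mitochondrial phosphoenolpyruvate carboxykinase, was the called gene of 10 in the gluconeogenesis and glycogen list in WT cells, at -0.23 (adjusted p = 0.0302), a call lost in 4 of 6 leave-one-out fits. None of 5 other glycolytic isozymes tested in WT cells was called.

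Between the lines with vehicle, 22.4% of all genes tested were called higher and 22.7% lower. Of those at a mean of at least 10 CPM, 30.4% were higher and 33.0% lower. The pentose phosphate list had 5 of 8 genes higher and none lower by edgeR, led by *Pgd* (0.53, adjusted p = 7.83e-08), 6-phosphogluconate dehydrogenase. The transport list had 3 of 8 higher and 1 lower, with *Slc16a1* at 0.76 (adjusted p = 2.59e-10) and *Slc2a8* at -0.92 (adjusted p = 8.76e-09). Of the genes of glutamine, aspartate and citrate use 6 of 12 were higher and 1 lower, led by *Me2*, mitochondrial malic enzyme, at 0.84 (adjusted p = 1.62e-10). The further pyruvate dehydrogenase and TCA genes split into 5 higher and 3 lower of 12, with *Ogdhl*, a homolog of *Ogdh*, at -1.49 (adjusted p = 6.57e-09). Gluconeogenesis and glycogen genes had 3 of 10 higher (30%) and none lower, beside 22.4% and 22.7% of all genes tested. Other glycolytic isozymes had 2 of 6 higher and 1 lower. Among the HIF-1 genes 4 of 18 were higher (22.22%) and 5 lower (27.78%), close to the shares over all genes. *Arnt*, the partner of HIF-1 alpha, had -0.98 (adjusted p = 1.5e-11, edgeR), and *Ddit4* went the other way at 0.90 (adjusted p = 1.18e-09). *Hif1a* itself had -0.07 (adjusted p = 0.323). The mitochondrial regulators had 5 of 10 higher and 2 lower. The lower ones were the coactivator genes *Ppargc1a* and *Ppargc1b*, both at -1.69 (adjusted p = 1.21e-08 and 4.66e-05, edgeR). *Ppargc1a* spanned 8.25 to 9.50 CPM in WT vehicle libraries and 2.30 to 3.49 CPM in Y428F vehicle libraries.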

How the data were processed

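Reads were processed by the authors. According to the submitters' processing notes and the study's methods, they were mapped with STAR 2.7.10b to GRCm39 and summarized per gene with RSEM, and DESeq2 was the authors' tool for normalization. The deposited values are RSEM expected counts per gene, not scaled for library size. RSEM divides reads among near-identical copies, so members with such copies are uncertain. Annotation release, gene positions and exon lengths used here came from GENCODE on GRCm39, with 56236 of 56980 identifiers matched by their stable part and 744 not.

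Expected counts were rounded to whole numbers. The model was edgeR 4.0.16 under R 4.3.3 (TMM, at least 10 counts in total per gene, quasi-likelihood test, Benjamini-Hochberg adjustment over all genes tested). A gene was called at an adjusted p under 0.05. PTH in WT cells was fitted on the 6 WT libraries, and the other comparisons on all 12 in 4 groups. Scripts were tested on simulated data. Levels are means over 3 libraries, each of 17127897 to 19057319 counts, so depth limits only the scarcest members.

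Members and lists were chosen with earlier results of these data known. Any member could be named. Values by library were given for up to 6 called members per comparison with the largest absolute log2 fold change at a mean of at least 1 CPM, and for *Gapdh*. Up to 3 called genes per list and comparison were named by the same order, *Hif1a* and the cell type markers aside. Some genes of these lists were counted but are not reported here by name. Alternatives were DESeq2 1.42.0, other scalings (DESeq2's size factors, or library totals only), other filters on low counts, a stricter call, the replicate number as a block, the fit on all 12 libraries for WT cells, centring on the chromosome median and leaving out each library. Promoter windows came from RefSeq on GRCm38.p6 and were not joined to GRCm39 positions.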

Additional observations from a re-analysis of the deposited data

Results flagged for a closer look

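No member gene was called for a difference between the lines in its response to PTH, but 2 of 18 tested genes of the HIF-1 list were. Across all genes tested 0.413% were called, and no test of the list was run. *Ddit4*, an inhibitor of mTOR signaling, fell with PTH by 0.80 on the log2 scale in WT cells and by 0.29 in Y428F cells, a difference in response of 0.52 (edgeR's quasi-likelihood interaction test, adjusted p = 0.0226). It read 67.1, 61.0 and 61.7 CPM with vehicle and 39.4, 34.8 and 34.4 CPM with PTH in WT cells, and 124, 119 and 112 CPM against 104, 88.2 and 99.2 CPM in Y428F cells. In both lines every PTH library lay below every vehicle library. *Vegfa*, the endothelial growth factor, fell by 0.43 in WT cells and had a log2 fold change of -0.07 in Y428F cells, a difference of 0.37 (adjusted p = 0.0372, edgeR). Its WT libraries read 145, 158 and 145 CPM with vehicle and 114, 113 and 105 CPM with PTH, and its Y428F libraries 122, 121 and 118 CPM against 115, 113 and 118 CPM. The call for *Ddit4* was lost in 5 of 12 fits that left out 1 library, namely without WT PTH replicate 2 (adjusted p = 0.0712), Y428F vehicle replicates 2 (0.0726) and 3 (0.0883) and Y428F PTH replicates 1 (0.0561) and 3 (0.0821). That for *Vegfa* was lost in 10 of 12, in all but those without WT vehicle replicate 1 or Y428F PTH replicate 2, with adjusted p up to 0.137.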

How the results depend on the processing

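No called difference of a gene whose values were given by library changed direction under the alternatives run. Of the other members, *Mdh1* went from 0.15, called, to -0.03 after centring on the chromosome median with vehicle, and *Dlat*, not called, from -0.10 to 0.11. *Dlat*, *Eno2* and *Suclg2*, none of them called, also changed sign on centring with PTH, to 0.08, 0.02 and 0.01. *Gapdh*, whose response to PTH was near 0 and not called, changed sign in WT cells with library totals (0.01 to -0.05) and without WT PTH replicate 1 (-0.009), and in the difference in response without WT PTH replicate 3 (0.04 to -0.01). The replicate numbers are shared by the groups but did not pair the libraries, since deviations from the group means correlated at a mean of 0.0134 over 18 same-numbered pairs (-0.14 to 0.238, 3 over 0.1). With the replicate number as a block, PTH in WT cells raised 3 members (*Dlst* lost, adjusted p = 0.0716) and lowered 1. The members lowered by PTH in WT cells (0 by the reported fit) were 1 with DESeq2, without a filter on low counts and with filterByExpr, and 2 with library totals or the fit on all 12 libraries. Leaving out a library gave 0 to 2 lowered (2 without WT vehicle replicate 1) and 3 to 6 raised. In Y428F cells the 2 lowered became 4 with library totals or no filter, and 1 under a stricter call (adjusted p limit 0.01, log2 limit 0.3), where the 2 raised became 0. Leave-one-out fits gave 1 to 2 in each direction. At that stricter limit the members lower in Y428F cells were 3 with vehicle and 4 with PTH, and with library totals 5 with PTH. Leaving out a library gave 26 to 27 higher and 6 to 7 lower with vehicle, and 24 to 28 higher and 5 to 9 lower with PTH (5 without WT PTH replicate 1). When scaled by library totals only, PTH was called for 744 genes higher and 1216 lower in WT cells (1072 and 765 with TMM) and for 888 and 1445 in Y428F cells (1170 and 1022). *Dlst* was not called with library totals (adjusted p = 0.0824). The causes of these changes were not tested. For scarce members such as *Aldoc* the counts limit what can be seen.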
